A study of Mus musculus with 16 samples.

Results

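The comparison described here is the effect of 4 h of sleep deprivation on the mouse cortex transcriptome, pooled over both genotypes of a study of the BK channel. All 16 libraries of the study entered, 8 from sleep-deprived mice and 8 from undisturbed baseline mice, with genotype as a covariate. Of the 22880 genes in the table, 14278 reached a normalized count of 10 in 8 or more libraries and were tested, and 8602 were not tested. The filter ignored the labels, but a gene above it in all 8 libraries of 1 treatment alone also passed. Each library was total RNA of brain cortex from an individual animal, an F1 hybrid of C57Bl6/J and Sv129. WT_BL and WT_SD were wild type littermates at baseline and after sleep deprivation, and KO_BL and KO_SD were BK deficient mice under the same conditions, with 4 animals in each group. Deprivation was by gentle handling from light onset, and all tissue was taken at zeitgeber time 4 (ZT4, 4 h after light onset), so both treatments were matched for time of day. The sources used here do not give the age of the animals, the structure of the mutant allele or which animals shared a cage or litter.

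Wakefulness keeps cortical neurons active, and activity switches on immediate early genes within minutes to hours, first transcription factors of the Fos, Egr and Nr4a families and then effectors that act at synapses. Prolonged wakefulness in mice is also known to engage the unfolded protein response, in which chaperones of the endoplasmic reticulum (ER) are made in larger amounts, the cytosolic heat shock system, and genes that answer to glucocorticoid, the stress hormone. Brain temperature follows the sleep-wake state, and the amounts of some mRNAs that respond to mild cooling are known to follow it.

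Between sleep-deprived and baseline libraries 1694 of the 14278 tested genes differed, which is 11.9% (limma on log2(normalized count + 1), Benjamini-Hochberg adjusted p below 0.05). Of these, 866 were higher after deprivation (6.07% of those tested) and 828 were lower (5.8%). Most of the changes were small, with a median absolute log2 fold change of 0.415 among called genes. A change of more than 1 on the log2 scale was reached by 48 genes that rose and 74 that fell. At 278 genes (1.95%) the 8 sleep-deprived libraries and the 8 baseline libraries did not overlap at all, with 191 higher (1.34%) and 87 lower (0.609%). The 4 smallest p-values belonged to Cdkn1a and Fosb, both regulated by neuronal activity, and to Hspa5 and Pdia4, whose products fold proteins in the ER. Below, values of a gene are normalized counts, given as the median of the 8 libraries of a treatment with the lowest and highest in parentheses. Fold changes are sleep-deprived minus baseline on the log2(normalized count + 1) scale, on which the change of a gene with low counts comes out too small.

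**Figure D1:**
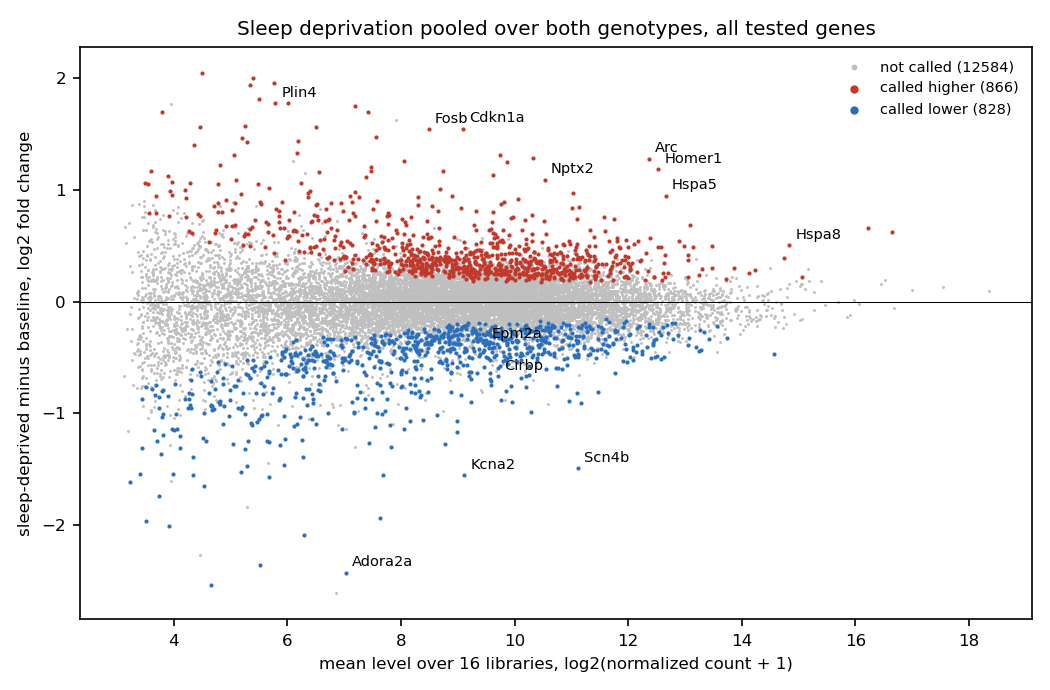
Each point is 1 of the 14278 tested genes, with its mean level over the 16 libraries as log2(normalized count + 1) on the horizontal axis and its pooled log2 fold change, sleep-deprived minus baseline, on the vertical axis. Red points are the 866 genes called higher and blue points the 828 called lower (limma, adjusted p below 0.05), and the labelled genes are described in the text.

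Libraries differed in ways that bear on these results. Recovered depth ran from 8.76 M reads in KO_BL 1 to 30.5 M reads, with medians of 20.5 M at baseline and 18.3 M after deprivation. KO_SD 4 and KO_SD 1 fitted the model least well, with limma array weights of 0.2 and 0.241 against up to 3.52 in WT_SD 3. Without these 2 libraries and KO_BL 1 the comparison called 2106 genes (14.7%), 1057 higher (7.4%) and 1049 lower (7.35%). Kcnma1 (ENSMUSG00000063142, chromosome 14, 23289431 to 24014491, minus strand, GRCm38), which encodes the pore-forming subunit of the BK channel, had a median of 1690 (range 1151 to 2156) at baseline and 1010 (432 to 2004) after deprivation. The log2 fold change of -0.71 ± 0.24 SE did not pass (adjusted p = 0.0585). At baseline its counts were 1779, 1317, 1889 and 1151 in wild type mice and 2156, 1425, 2047 and 1600 in knockout mice, so the targeted gene was not lower in the libraries labelled BK deficient. The count covers the whole gene, and the part of it that is mutated is unknown here, so it is no check of the genotype labels.

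Markers of neighbouring brain regions and of blood moved with the treatment. Markers of the striatum, which lies beneath the cortex, were lower after deprivation in all 14 tested of 15 listed, and 10 of them fell (against 5.8% of all tested genes), with a median log2 fold change of -0.95 against -0.0022 over all tested genes. Adora2a, an adenosine receptor gene of striatal neurons, went from a median of 405 (range 93.5 to 847) to 49.7 (15.3 to 247) (log2 fold change -2.42 ± 0.54 SE, limma adjusted p = 0.00929). The mean striatal marker level, as log2 deviation from the average library, ran from -0.4 to 1.51 at baseline and from -1.12 to 0.64 after deprivation, so the treatments overlapped. Hippocampal markers tended the other way, with 2 called higher of 15 tested (against 6.07% of all tested genes), a median of 0.54, and mean levels of -0.78 to 0.37 at baseline and -0.25 to 1.14 after deprivation. Blood markers had a median of -0.82 over 7 tested genes with 2 called lower, and the red cell gene Alas2 went from a median of 71 (range 35.6 to 132) to 34.7 (24.7 to 43.7). With striatal marker level as a further covariate, 206 genes were called (1.44%), 126 higher (0.882%) and 80 lower (0.56%). Of the 1694 genes called without it, 1689 kept their sign, 198 remained called, and the median ratio of the fold changes with and without the covariate was 0.945. In bulk tissue, fewer cells of a type and less RNA per cell cannot be told apart. Uneven dissection and treatment cannot be told apart here either, and the part of dissection in the gene results was not tested. With the striatal covariate the calls of Adora2a and Alas2 ended (limma adjusted p = 0.292 and 0.151). Adora2a is itself 1 of the markers averaged in the covariate, so its lost call is no separate result. Below, the adjusted p with this covariate is given for each named gene whose call it ends, and each list's count of calls is followed by the count with it. A lost call is not by itself a smaller fold change. Among these genes the value with the covariate was larger in size for some and smaller for others.

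**Figure D2:**
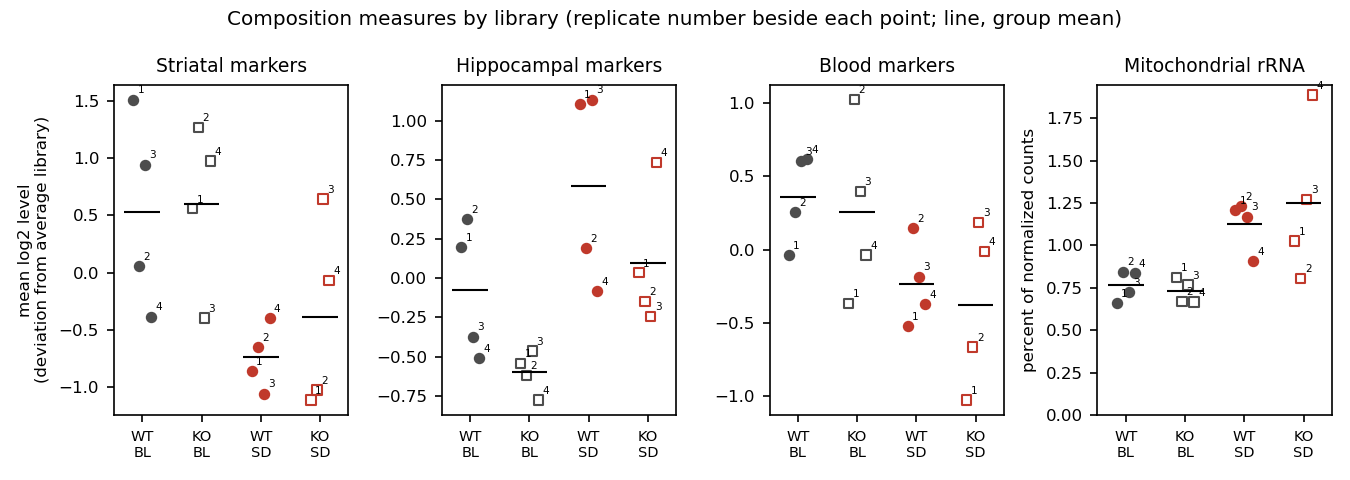
Each point is 1 library, with its replicate number beside it and a line at the group mean (n = 4 per group). The first 3 panels show the mean log2 level of striatal, hippocampal and blood marker genes as deviations from the average library, and the right panel shows mitochondrial ribosomal RNA as a percent of all normalized counts. Striatal markers reached 1.51 at baseline and at most 0.64 after deprivation, and mitochondrial ribosomal RNA rose from at most 0.845% at baseline to as much as 1.89% after it.

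Mitochondrial ribosomal RNA took a larger share of the counts after deprivation. It made up 0.661% to 0.845% (median 0.746%) of normalized counts at baseline and 0.805% to 1.89% (median 1.19%) after deprivation, where KO_SD 4 was highest. The means differed by 0.44 percentage points (exact permutation test within genotype, two-sided, p = 0.000816, 4900 arrangements). The ranges overlapped, as KO_SD 2 (0.805%) lay below the highest baseline library. Fold changes also differed by gene length. The median log2 value was 0.11 for genes of at most 1000 bases and -0.14 for genes over 6000 bases, and 7.04% of the former but 1.41% of the latter were called higher. The level of short relative to long genes differed by 0.21 on the log2 scale between treatments, which did not pass (exact permutation test, p = 0.177). The part of this length trend in the gene results below was not tested.

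Of the activity-regulated transcription factors, about as many rose after sleep deprivation as did not pass the test, and 0 fell. Of 27 listed genes 26 were tested, 14 rose, 0 fell and 12 did not pass, against 6.07% higher and 5.8% lower among all tested genes, and with the striatal covariate 4 were called higher. The median log2 fold change was 0.55, with 0.55 in wild type and 0.55 in knockout mice. Fosb (ENSMUSG00000003545, chromosome 7, 19302696 to 19310051, minus strand), which encodes a partner of Jun proteins in the AP-1 factor, went from a median of 204 (range 167 to 287) at baseline to 631 (452 to 784) after deprivation, and the lowest sleep-deprived library lay above the highest baseline library. Its log2 fold change was 1.54 ± 0.13 SE (limma adjusted p = 2.61e-06), with 1.53 in wild type and 1.55 in knockout mice. Nr4a3, an orphan nuclear receptor gene, went from a median of 586 (range 337 to 714) to 1342 (1055 to 1892), again without overlap. Fosl2, a further AP-1 member, went from a median of 589 (range 500.5 to 791) to 1420 (1097 to 2082), and all 8 sleep-deprived libraries were above all 8 baseline libraries. The log2 fold changes of Nr4a3 and Fosl2 were 1.31 ± 0.14 SE and 1.25 ± 0.13 SE (limma adjusted p = 2.24e-05 and 1.17e-05).

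Other factors of the group rose too. Egr2, a zinc finger factor gene, went from a median of 110.4 (range 63.3 to 225) to 271 (183 to 507), and its highest baseline library lay above the lowest sleep-deprived one (log2 fold change 1.48 ± 0.25 SE, limma adjusted p = 0.00143). Bhlhe40, a basic helix-loop-helix repressor gene that also acts in the circadian clock, rose by 0.50 without overlap (limma adjusted p = 0.000743). With the striatal covariate the calls of Egr2 and Bhlhe40 ended (limma adjusted p = 0.105 and 0.0665). The most used markers of neuronal activity, named here after their values were seen, had values below that of Fosb. Fos rose by 0.81 and Egr1 by 0.49 on the log2 scale, while Npas4, a factor specific to neurons, had a value of 0.55 that did not pass (limma adjusted p = 0.0204, 0.0243 and 0.149). The calls of Fos and Egr1 ended with the striatal covariate (adjusted p = 0.351 and 0.393), that of Fos also without KO_BL 1, KO_SD 1 and KO_SD 4 (0.0846), and that of Egr1 without WT_BL 3 or WT_SD 3 (0.0508 to 0.0555).

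Many effectors of neuronal activity rose as well. Of 28 listed genes 27 were tested, 16 rose (5 with the striatal covariate), 0 fell and 11 did not pass, against 6.07% higher among all tested genes (0.882% with that covariate). The median log2 value was 0.52. Cdkn1a (ENSMUSG00000023067, chromosome 17, 29090976 to 29100727, plus strand), which encodes the cell cycle inhibitor p21, had the smallest p-value of all tested genes. The counts went from a median of 334 (range 217 to 428) at baseline to 996 (741 to 1078) after deprivation, with a wide gap between the treatments, and its log2 fold change was 1.55 ± 0.11 SE (limma adjusted p = 4.67e-07). Homer1 (ENSMUSG00000007617, chromosome 13, 93299635 to 93405129, plus strand), a postsynaptic scaffold gene with a short activity-induced form that this whole-gene count does not separate, went from a median of 3797 (range 3184 to 6339) to 8265 (6955 to 16530). No library overlapped, and KO_SD 1 was the highest. The log2 value was 1.18 ± 0.14 SE with all libraries and 1.21 without KO_BL 1, KO_SD 1 and KO_SD 4 (limma adjusted p = 8.56e-05 and 1.7e-07).

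Secreted and synaptic products were among these effectors. Bdnf, the neurotrophin gene, went from a median of 506 (range 435 to 695) to 1187 (684 to 1825), with 1 sleep-deprived wild type library just below the highest baseline library. Nptx2, which encodes a pentraxin that clusters AMPA receptors, went from a median of 1032 (range 755 to 1243) to 2298 (1473 to 2799) without overlap. Ptgs2, the gene of cyclooxygenase-2, an enzyme of prostaglandin synthesis, went from a median of 285 (range 233 to 341) to 632 (390.5 to 1117), also without overlap. The log2 fold changes were 1.13 ± 0.13 SE, 1.09 ± 0.14 SE and 1.16 ± 0.14 SE (limma adjusted p = 3.28e-05, 0.000113 and 5.8e-05), and all 3 calls remained with the striatal covariate. Arc, which encodes a protein that controls AMPA receptor endocytosis, varied widely at baseline, with a median of 3388 (range 1214 to 6755), and reached 8638 (5476 to 11730) after deprivation. Its log2 fold change of 1.28 ± 0.29 SE passed (limma adjusted p = 0.0103) but not with the striatal covariate (adjusted p = 0.233).

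**Figure D3:**
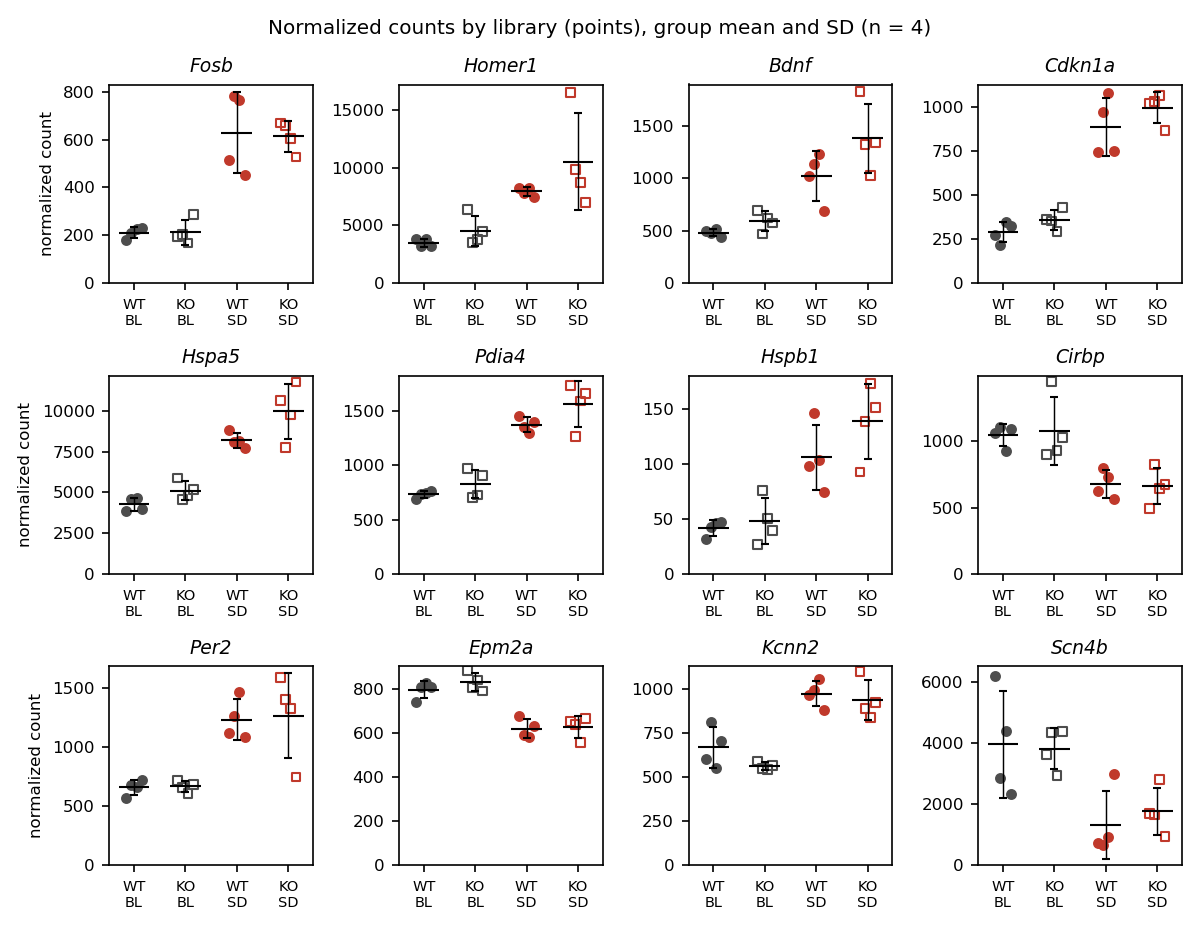
Normalized counts of 12 genes in the 16 libraries, with filled circles for wild type (WT) and open squares for knockout (KO) mice, grey for baseline (BL) and red for sleep-deprived (SD). Lines are group means and bars are SD (n = 4). Fosb, Homer1, Cdkn1a, Hspa5, Pdia4 and Per2 were higher in every sleep-deprived library than in any baseline library, and Cirbp and Epm2a were lower in every one, while Scn4b overlapped.

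Negative feedback regulators of the MAP kinase pathway rose in 10 of 18 listed and tested genes (3 with the striatal covariate), while 1 fell (0 with it) and 7 did not pass, with a median log2 fold change of 0.31. The shares over all tested genes were 6.07% higher and 5.8% lower. Dusp5, which encodes a nuclear phosphatase of ERK, went from a median of 167 (range 132 to 229.8) to 402 (336 to 537), and no libraries overlapped (log2 fold change 1.26 ± 0.12 SE, limma adjusted p = 8.73e-06). Spry4, a Sprouty gene that restrains receptor tyrosine kinase signals, went from a median of 233 (range 191 to 286) to 405 (373 to 521). Dusp4, another ERK phosphatase gene, went from a median of 124 (range 74.2 to 135) to 259 (169 to 342). Neither Spry4 (0.87 ± 0.0872 SE) nor Dusp4 (1.11 ± 0.15 SE) overlapped between treatments, and both passed (limma adjusted p = 1.17e-05 and 0.000218). Dusp6 and Spred2 rose by 0.54 and 0.50, but their calls ended with the striatal covariate (limma adjusted p = 0.26 and 0.115).

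Genes of cAMP signalling passed the test in both directions. Of 22 listed and tested, 3 rose (13.6%) and 3 fell (13.6%), against 6.07% and 5.8% of all tested genes. These counts were 1 and 1 with the striatal covariate. Without it 16 did not pass, and the median was 0.052. Crem, whose inducible product represses cAMP-driven transcription, went from a median of 289 (range 254 to 412) to 511 (437 to 723) without overlap (log2 fold change 0.81 ± 0.094 SE, limma adjusted p = 5.07e-05). Pde1a and Pde4b, which encode phosphodiesterases that break down cyclic nucleotides, fell with log2 fold changes of -0.37 ± 0.0881 SE and -0.32 ± 0.0845 SE (limma adjusted p = 0.013 and 0.0206). The Pde4b call ended with the striatal covariate (adjusted p = 0.206).

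In the RefSeq promoter table (GRCm38.p6, 250 bases before to 50 after each start), the core of the cAMP response element, TGACG on either strand, was present at 16 of the 21 matched activity-regulated transcription factor genes (76.2%) and at 12 of 21 matched effector genes (57.1%). It was present at 23.0% of all 27025 genes in the table and at 34.3% of the tested genes that could be matched. The core was not particular to these lists. The other lists scanned ran from 22.2% (clock activators and outputs) to 57.1% (12 of 21 cytosolic heat shock genes), with ER chaperones at 41.2%. The full palindrome TGACGTCA, which contains that core, was present at 1 of the factor genes and 4 of the effector genes. A match describes letters and not a site in use.

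Chaperones of the endoplasmic reticulum rose in part, and those named below separated the treatments completely. Of 21 listed and tested genes 10 rose (47.6%, against 6.07% of all tested genes), 0 fell and 11 did not pass. With the striatal covariate 8 were called higher, against 0.882% of all tested genes with it. The median log2 value was 0.32, with 0.21 in wild type and 0.33 in knockout mice. Hspa5 (ENSMUSG00000026864, chromosome 2, 34771970 to 34777547, plus strand), which encodes BiP, the main ER chaperone and the regulator of the unfolded protein sensors, went from a median of 4642 (range 3865 to 5889) at baseline to 8498 (7732 to 11780) after deprivation. The treatments did not overlap, and the log2 fold change was 0.95 ± 0.0809 SE (limma adjusted p = 3.26e-06). Calr, the gene of the calcium-binding lectin chaperone calreticulin, went from a median of 6686 (range 5964 to 8016) to 10640 (10030 to 13340). Manf, a secreted ER stress protein gene, went from a median of 636 (range 573 to 722) to 1118 (1034 to 1669). Neither gene had overlapping treatments, with log2 fold changes of 0.69 ± 0.0696 SE and 0.87 ± 0.0849 SE (limma adjusted p = 1.23e-05 and 1.06e-05). Among the less abundant members, Sdf2l1, a BiP partner gene, went from a median of 115 (range 95.1 to 148) to 243 (230.1 to 378), and Creld2 went from a median of 223 (range 205 to 271) to 431 (341 to 553). Their log2 fold changes were 1.17 ± 0.11 SE and 0.94 ± 0.0983 SE (limma adjusted p = 1.06e-05 and 1.8e-05).

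The protein disulfide isomerases, which form and rearrange disulfide bonds in the ER, rose in part. Of 18 listed genes 15 were tested, 6 rose (4 with the striatal covariate), 0 fell and 9 did not pass, against 6.07% higher among all tested genes, with a median of 0.15. Pdia4 went from a median of 736 (range 691 to 973) to 1426 (1262 to 1737) and Pdia6 from a median of 2050 (range 1767 to 2302) to 3124 (2852 to 4042). Both were separated completely between treatments, with log2 fold changes of 0.91 ± 0.0791 SE and 0.64 ± 0.0746 SE (limma adjusted p = 3.26e-06 and 5.42e-05). Pdia3, whose product works with calreticulin on glycoproteins, rose by 0.54 (limma adjusted p = 0.000385). P4ha1, which encodes a collagen prolyl hydroxylase of the ER and came from the hypoxia list, went from a median of 895 (range 766 to 1131) to 1486 (1417 to 1679) without overlap (log2 fold change 0.73 ± 0.0718 SE, limma adjusted p = 1.06e-05).

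Most of the sensors and transcription factors of the unfolded protein response did not pass the test. Of 18 listed and tested, 3 rose (16.7%) and 1 fell (5.56%), against 6.07% and 5.8% of all tested genes. These counts were 1 and 0 with the striatal covariate. Without it 14 did not pass, and the median was -0.058. Xbp1, whose mRNA is spliced by IRE1 to make an active factor, went from a median of 1692 (range 1500 to 1922) to 2736 (2270 to 3466) with no overlap (log2 fold change 0.74 ± 0.0765 SE, limma adjusted p = 1.57e-05); the spliced form was not measured by this count. Atf4, the factor of the PERK branch, rose by 0.36 (limma adjusted p = 0.0126, and 0.154 with the striatal covariate). The 20 cytosolic aminoacyl-tRNA synthetase genes, many of which are ATF4 targets, had a median of 0.052 with 1 called higher (0 with that covariate) and 0 lower.

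The promoters of 4 of these genes are shown because each holds a complete ER stress element, here CCAAT followed after 9 bases by CCACG on either strand, the motif that ATF6 and XBP1 are known to use. The sequences come from RefSeq (GRCm38.p6) in the direction of transcription, with the element in capitals.
Hspa5 (chr2:34771840-34772139, plus strand): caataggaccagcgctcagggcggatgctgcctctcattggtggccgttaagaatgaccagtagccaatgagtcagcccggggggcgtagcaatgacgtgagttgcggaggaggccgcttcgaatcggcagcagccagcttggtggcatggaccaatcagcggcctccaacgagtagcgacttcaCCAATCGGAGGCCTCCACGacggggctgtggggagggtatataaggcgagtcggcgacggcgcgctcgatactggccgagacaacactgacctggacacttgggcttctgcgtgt
Calr (chr8:84846882-84847181, minus strand): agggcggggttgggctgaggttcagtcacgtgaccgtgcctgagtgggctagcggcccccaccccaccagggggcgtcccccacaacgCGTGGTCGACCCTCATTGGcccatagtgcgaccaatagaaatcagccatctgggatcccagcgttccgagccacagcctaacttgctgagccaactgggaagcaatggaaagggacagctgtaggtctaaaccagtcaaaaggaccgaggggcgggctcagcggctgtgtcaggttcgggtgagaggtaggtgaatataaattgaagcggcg
Creld2 (chr15:88819396-88819695, plus strand): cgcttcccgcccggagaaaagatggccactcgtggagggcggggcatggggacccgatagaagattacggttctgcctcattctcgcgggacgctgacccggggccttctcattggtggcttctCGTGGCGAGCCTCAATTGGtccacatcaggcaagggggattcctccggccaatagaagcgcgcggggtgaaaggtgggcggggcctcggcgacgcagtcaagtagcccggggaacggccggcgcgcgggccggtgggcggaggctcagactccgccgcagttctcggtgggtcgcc
Pdia6 (chr12:17266339-17266638, plus strand): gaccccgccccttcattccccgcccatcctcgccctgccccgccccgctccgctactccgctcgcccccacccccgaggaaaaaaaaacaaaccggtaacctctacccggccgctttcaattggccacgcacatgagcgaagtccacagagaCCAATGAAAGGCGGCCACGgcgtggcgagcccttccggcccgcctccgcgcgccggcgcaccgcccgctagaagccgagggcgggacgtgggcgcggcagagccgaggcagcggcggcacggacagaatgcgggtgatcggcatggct
The element lay at positions -65 to -47 relative to the start in Hspa5, -162 to -144 in Calr, -126 to -108 in Creld2 and -98 to -80 in Pdia6, on the antisense strand in Calr and Creld2. It was present at 8 of the 17 ER chaperone genes that could be matched (47.1%) and at 1 of 12 matched isomerase genes, against 37 of all 27025 genes in the table (0.137%). It was present at 0 of the 21 matched heat shock genes and 0 of the 21 matched activity-regulated factors. Members without a match in this window included genes that rose.

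Cytosolic heat shock proteins and their co-chaperones were higher throughout the list. All 26 listed genes were tested and had a higher mean after deprivation, of which 16 rose, 0 fell and 10 did not pass, against 6.07% higher among all tested genes. With the striatal covariate 5 were called higher. The median log2 fold change was 0.38. Hspa8, which encodes the constitutive chaperone Hsc70, went from a median of 24320 (range 22350 to 27450) to 33620 (31390 to 46780), in FPKM from a median of 943 to 1295. All sleep-deprived libraries lay above all baseline libraries, with KO_SD 4 highest, and the log2 fold change was 0.50 ± 0.0716 SE (limma adjusted p = 0.000353). Hspb1, a small heat shock protein gene, had the largest change of the list and went from a median of 44.3 (range 26.7 to 76) to 121 (75.2 to 174), with slight overlap (log2 fold change 1.44 ± 0.20 SE, limma adjusted p = 0.00025). Hsph1, a nucleotide exchange factor gene for Hsp70 proteins, went from a median of 6371 (range 5164 to 7590) to 8529 (8225 to 11810). Dnajb5, an Hsp40 co-chaperone gene, went from a median of 2606 (range 2037 to 2679) to 3797 (3268 to 4682). Hsph1, Dnajb5 and Stip1, the gene of the adaptor between Hsp70 and Hsp90, did not overlap between treatments and rose by 0.54, 0.63 and 0.41 (limma adjusted p = 0.000545, 0.000156 and 0.00102).

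The promoter of Hspb1 is shown as the one from the most changed member of the list, with the letters GAANNTTC, the core of the heat shock element, in capitals where they occur on either strand.
Hspb1 (chr5:135887669-135887968, plus strand): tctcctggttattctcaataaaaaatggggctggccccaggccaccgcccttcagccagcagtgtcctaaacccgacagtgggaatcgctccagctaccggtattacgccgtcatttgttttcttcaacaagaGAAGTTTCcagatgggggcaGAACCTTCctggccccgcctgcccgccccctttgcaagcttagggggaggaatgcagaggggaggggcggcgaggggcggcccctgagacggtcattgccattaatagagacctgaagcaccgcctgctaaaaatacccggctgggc
This core was present at 11 of 21 matched heat shock genes (52.4%), against 9.04% of all genes in the table and 0 of 17 matched ER chaperone genes. It did not overlap an ER stress element in the promoters printed here.

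Cold-inducible RNA-binding protein genes fell in part. Of 4 listed and tested genes 2 fell (0 with the striatal covariate), against 5.8% of all tested genes. Cirbp, whose product is made at mildly lowered temperature and binds clock gene mRNAs, went from a median of 1044 (range 899.8 to 1448) at baseline to 659 (495 to 827) after deprivation, and the treatments did not overlap, with a fold change of -0.67 ± 0.11 SE on the log2 scale (limma adjusted p = 0.00145, and 0.0586 with the striatal covariate). Rbm3, its relative, overlapped broadly, from a median of 1101 (range 729 to 1697) to 892 (688 to 1038) (log2 fold change -0.36 ± 0.11 SE, limma adjusted p = 0.045). That call ended in 18 of 34 alternatives, among them the striatal covariate (adjusted p = 0.226), leaving out KO_BL 1, KO_SD 1 and KO_SD 4 together (0.112), and leaving out WT_BL 1, WT_BL 2, WT_BL 4, WT_SD 2, WT_SD 3, WT_SD 4, KO_BL 1, KO_BL 2, KO_BL 3, KO_SD 2, KO_SD 3 or KO_SD 4 (0.0542 to 0.0921).

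Glucocorticoid-responsive genes rose in part. Of 22 listed genes 21 were tested, 8 rose (2 with the striatal covariate), 0 fell and 13 did not pass, against 6.07% higher among all tested genes. The median was 0.42, and Cdkn1a is a member of this list too. Tsc22d3, the gene of the leucine zipper protein GILZ, went from a median of 959.7 (range 792 to 1172) to 1556 (1321 to 2279) without overlap (log2 fold change 0.78 ± 0.12 SE, limma adjusted p = 0.0006). Mt2, a metallothionein gene, overlapped, from a median of 849 (range 481 to 1044) to 1234 (602 to 2197) (log2 fold change 0.75 ± 0.19 SE, limma adjusted p = 0.0166, and 0.0868 with the striatal covariate). Plin4, a lipid droplet protein gene, rose from a median of 23.6 (range 11.5 to 236) to 88.2 (51.8 to 334), and 1 baseline library, KO_BL 2, stood at the level of the highest sleep-deprived libraries. Its log2 fold change was 1.77 ± 0.50 SE (limma adjusted p = 0.0288), with 2.75 in wild type and 0.80 in knockout mice. The call of Plin4 ended in 10 of 34 alternatives, among them the striatal covariate (adjusted p = 0.138), leaving out KO_BL 1, KO_SD 1 and KO_SD 4 together (0.0725), and leaving out WT_BL 1, WT_BL 3, WT_SD 3, KO_BL 3 or KO_BL 4 (0.0504 to 0.0635).

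Most circadian clock genes did not pass the test, though the share of repressors that rose was above that of all tested genes. Of the 13 tested repressor genes 3 rose (23.1%, and 1 with the striatal covariate), 0 fell and 10 did not pass, with a median of 0.065. Of 10 activator and output genes 1 rose (10%), 1 fell (10%) and 8 did not pass. These 2 counts were 1 and 0 with that covariate. Among all tested genes 6.07% were higher and 5.8% lower. Per2, a core repressor whose mRNA is known to rise with time awake, went from a median of 671 (range 573 to 719) to 1296 (747 to 1589), and KO_SD 4 was the only sleep-deprived library near the baseline range. The fold change was 0.89 ± 0.12 SE on the log2 scale (limma adjusted p = 0.000247). Nfil3, which encodes a repressor at D-box elements, went from a median of 201.4 (range 178 to 243) to 329 (271 to 407) without overlap (log2 fold change 0.74 ± 0.094 SE, limma adjusted p = 0.000136). Cry1, the partner of the Per proteins, rose by 0.38 (limma adjusted p = 0.0033, and 0.0725 with the striatal covariate). Dbp, an activator at the same D-box elements as Nfil3, fell from a median of 927 (range 660.2 to 1161) to 685 (442 to 873) with overlap (log2 fold change -0.45 ± 0.13 SE, limma adjusted p = 0.0312, and 0.415 with the striatal covariate). The call of Dbp also ended without WT_BL 2, WT_BL 3, WT_BL 4, WT_SD 1, WT_SD 3, KO_BL 2 or KO_BL 4 (0.0515 to 0.0606).

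Genes of sterol metabolism tended to be lower. Of 26 listed and tested, 1 rose, 6 fell (0 and 2 with the striatal covariate) and 19 did not pass, with a median log2 fold change of -0.17. The shares over all tested genes were 6.07% higher and 5.8% lower. Insig1, which encodes the ER retention factor of the sterol sensor, went from a median of 1064 (range 967 to 1199) at baseline to 854 (716 to 1009) after deprivation, with slight overlap (log2 fold change -0.33 ± 0.0664 SE, limma adjusted p = 0.00473). Lss, which encodes a synthesis enzyme, fell with a log2 fold change of -0.29 ± 0.0728 SE, and Ebp, a sterol isomerase gene, rose by 0.32. The calls of Lss and Ebp ended with the striatal covariate (limma adjusted p = 0.121 and 0.112).

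Among genes of glycogen turnover and glycolysis few passed. Of 22 glycogen genes 2 rose (9.1%) and 1 fell (4.5%), near the 6.07% and 5.8% of all tested genes (0 and 1 with the striatal covariate), with a median of 0.046. Of 29 glycolysis and lactate genes 1 rose (3.4%, and 0 with it) and 0 fell, with a median of -0.01. Epm2a, the gene of the glycogen phosphatase laforin, went from a median of 810.4 (range 741 to 886) to 635 (556 to 679.8) with no overlap between treatments (log2 fold change -0.38 ± 0.0597 SE, limma adjusted p = 0.00081). Ppp1r3c, which encodes a subunit that directs protein phosphatase 1 to glycogen, went from a median of 754 (range 613 to 915) to 1016 (883 to 1530) (log2 fold change 0.54 ± 0.11 SE, limma adjusted p = 0.00628). Pfkfb3, whose product makes the activator of phosphofructokinase, rose by 0.57 (limma adjusted p = 0.0126). The calls of Ppp1r3c and Pfkfb3 ended with the striatal covariate (adjusted p = 0.149 and 0.159).

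**Figure D4:**
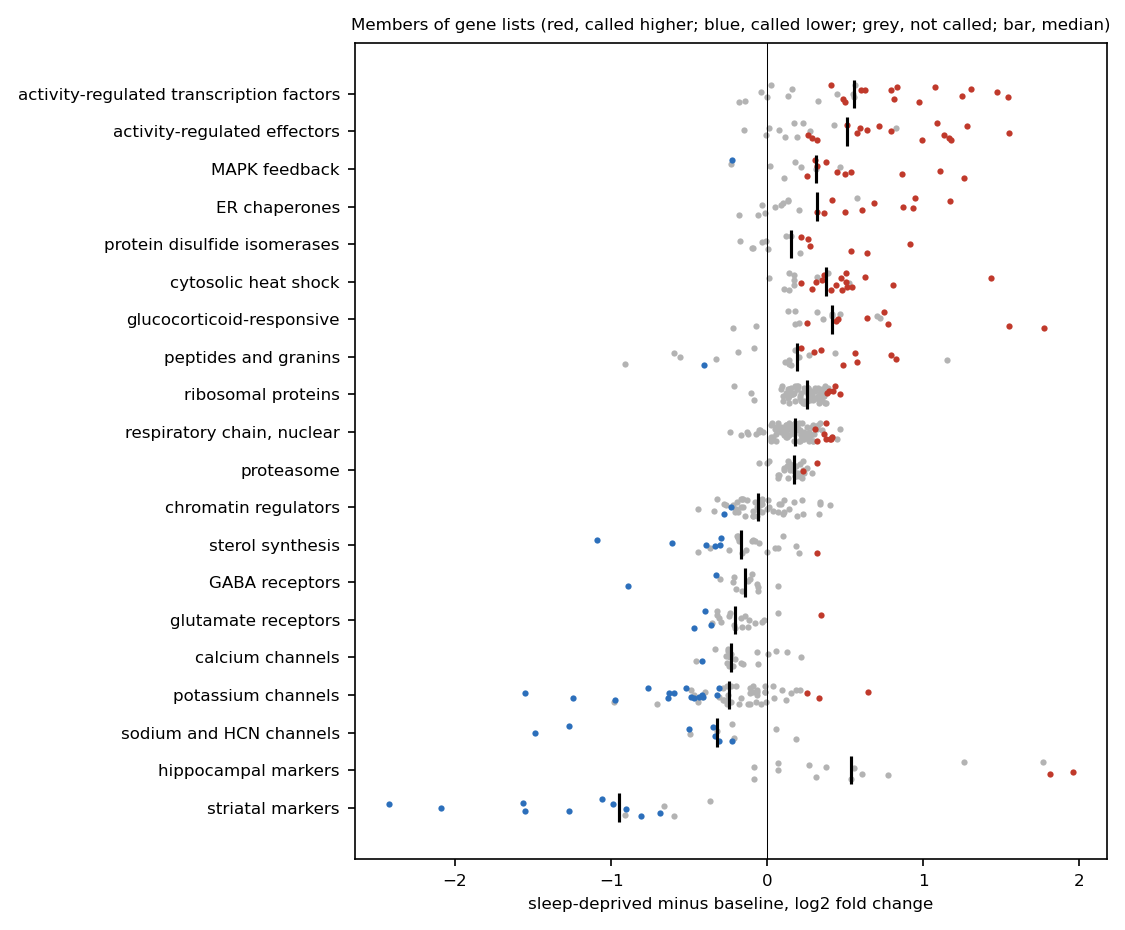
Pooled log2 fold changes, sleep-deprived minus baseline, of the tested members of 20 gene lists. Each point is 1 gene, in red where called higher, blue where called lower and grey where not called (limma, adjusted p below 0.05 over all tested genes), and the black bar is the list's median. Activity-regulated, ER chaperone and heat shock lists have their medians at 0.32 to 0.55 with 0 members called lower, and the sodium and HCN channel and striatal lists lie below 0 at -0.32 and -0.95.

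Among ion channel genes that passed the test, more were lower after deprivation than higher. Of 60 potassium channel genes 3 rose and 15 fell, against 6.07% and 5.8% of all tested genes, with a median log2 fold change of -0.24. These counts were 1 and 2 with the striatal covariate. Kcnn2, which encodes the small-conductance calcium-activated channel SK2, was among the 3 that rose and went from a median of 579 (range 546 to 817) to 947 (841 to 1103) without overlap (log2 fold change 0.64 ± 0.0828 SE, limma adjusted p = 0.000138). That call remained with the striatal covariate (adjusted p = 0.0222). Kcnd1, an A-type channel gene, went from a median of 314 (range 256 to 378) to 228 (186 to 268), and Kcnk2, the gene of the leak channel TREK-1, from a median of 1172 (range 963 to 1530) to 892 (808 to 995). Both fell, with slight overlap and log2 fold changes of -0.47 ± 0.0858 SE and -0.41 ± 0.0799 SE (limma adjusted p = 0.00291 and 0.00411). Kcna2, a delayed rectifier gene of axons, had a larger but more scattered value, from a median of 963 (range 494 to 1433) to 310 (70.4 to 1056) (log2 fold change -1.55 ± 0.42 SE, limma adjusted p = 0.0256). The Kcna2 call ended without WT_BL 3, WT_SD 2, WT_SD 3 or KO_BL 3 (0.0515 to 0.0539). With the striatal covariate the calls of Kcnd1, Kcnk2 and Kcna2 ended (limma adjusted p = 0.11, 0.193 and 0.109). Their log2 fold changes with it were -0.37, -0.22 and -1.88, so that of Kcna2 was not smaller.

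Sodium and HCN channel genes fell in 7 of the 13 tested of 14 listed, against 5.8% of all tested genes, with 0 higher and a median of -0.32, but 0 were called lower with the striatal covariate. Scn4b, a sodium channel beta subunit gene that is abundant in the striatum, went from a median of 3981 (range 2337 to 6203) to 1287 (658 to 2978) with overlap (log2 fold change -1.49 ± 0.29 SE, limma adjusted p = 0.00425). Hcn4, a pacemaker channel gene, was at low counts, from a median of 52 (range 21.8 to 112) to 20.2 (12.3 to 33.7) (log2 fold change -1.27 ± 0.29 SE, limma adjusted p = 0.0101). The value was -0.49 ± 0.33 SE in wild type and -2.06 ± 0.29 SE in knockout mice, so the pooled value is a mean of unlike ones. The difference between genotypes was not called after adjustment. Scn2a1, the gene of a main sodium channel of excitatory neurons, went from a median of 7684 (range 6164 to 8677) to 5029 (4038 to 7988) (log2 fold change -0.50 ± 0.12 SE, limma adjusted p = 0.016). With the striatal covariate the calls of Scn4b, Hcn4 and Scn2a1 ended (limma adjusted p = 0.191, 0.182 and 0.0877), at log2 fold changes of -0.86, -1.01 and -0.59. Among calcium channel genes 1 of 21 fell (0 with that covariate) and 0 rose, with a median of -0.23.

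Receptor genes that passed the test were mostly lower after deprivation, and with the striatal covariate 0 genes of the 3 receptor lists were called. Of 22 glutamate receptor genes 1 rose (4.5%, against 6.07% of all tested genes) and 3 fell (13.6%, against 5.8%), with a median of -0.21. Of 14 GABA receptor genes 0 rose and 2 fell (14.3%), with a median of -0.14. Receptors for neuromodulators, which carry the signals of arousal systems, fell in 11 and rose in 2 of 34, against 5.8% and 6.07% of all tested genes, with a median of -0.16. The largest decrease of the list was that of Adora2a, given above as a striatal gene. Oprk1, the kappa opioid receptor gene, went from a median of 399.7 (range 229 to 457) to 142 (88.7 to 229.5), with the treatments barely overlapping (log2 fold change -1.30 ± 0.22 SE, limma adjusted p = 0.00141). Htr2a, the gene of the serotonin 2A receptor, went from a median of 451 (range 199 to 592) to 168 (86.4 to 336) (log2 fold change -1.14 ± 0.26 SE, limma adjusted p = 0.0105). Hrh1, the histamine H1 receptor gene, rose from a median of 324 (range 285 to 371) to 457 (316 to 488) (log2 fold change 0.43 ± 0.0842 SE, limma adjusted p = 0.00412). With the striatal covariate the calls of Oprk1, Htr2a and Hrh1 ended (limma adjusted p = 0.0957, 0.115 and 0.148), at log2 fold changes of -0.64, -1.15 and 0.31.

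Neuropeptide and granin genes rose in 8 of 24, fell in 1 (0 and 0 with the striatal covariate) and did not pass in 15. Among all tested genes 6.07% were higher and 5.8% lower, and 0.882% and 0.56% with that covariate. The list's median log2 fold change was 0.19. Crh, which encodes corticotropin-releasing hormone, went from a median of 77.5 (range 54.6 to 107) to 142 (96 to 178) (log2 fold change 0.83 ± 0.13 SE, limma adjusted p = 0.00115). Vip, a peptide of a class of cortical interneurons, went from a median of 959.8 (range 781 to 1190) to 1378 (1153 to 1862) (log2 fold change 0.56 ± 0.0868 SE, limma adjusted p = 0.000743). Scg2, a granin of dense-core vesicles, rose by 0.49 and Pcsk2, a prohormone convertase gene, fell, with a value of -0.41 ± 0.0765 SE (limma adjusted p = 0.00503 and 0.0033). All 4 calls ended with the striatal covariate (limma adjusted p = 0.0628, 0.0688, 0.0649 and 0.0515). Among 38 genes of synaptic scaffolds and release 2 rose (5.3%) and 3 fell (7.9%), near the shares of all tested genes (0 and 0 with that covariate). Of these, Cbln2 and Cbln4, which encode cerebellins that bridge synapses, rose by 0.60 and 0.86 (limma adjusted p = 0.00151 and 0.00291, and 0.0835 and 0.118 with the striatal covariate).

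Genes outside the lists were among the largest changes at levels above the median. Tshz2, a zinc finger homeobox gene, went from a median of 784 (range 521 to 1421) to 2001 (1515 to 2408), and Galnt9, which encodes an O-glycosylation enzyme, from a median of 1694 (range 1283 to 2111) to 3164 (2279 to 3602). Neither overlapped between treatments, with log2 fold changes of 1.28 ± 0.15 SE and 0.85 ± 0.13 SE (limma adjusted p = 5.62e-05 and 0.00054). Dio2, the gene of the deiodinase that activates thyroid hormone in glia, went from a median of 1418 (range 1167 to 2111) to 2821 (1908 to 5479) (log2 fold change 0.97 ± 0.15 SE, limma adjusted p = 0.000605). Ina, a neuronal intermediate filament gene, went from a median of 4314 (range 4090 to 5015) to 6789 (5682 to 6942) with no overlap (log2 fold change 0.57 ± 0.0623 SE, limma adjusted p = 2.88e-05). Among decreases, Myo16, an unconventional myosin gene, went from a median of 750.2 (range 533 to 1045) to 401 (301 to 554), with overlap (log2 fold change -0.84 ± 0.14 SE, limma adjusted p = 0.00133). Ncam2, a cell adhesion gene, and Zkscan16, a zinc finger gene, had log2 fold changes of -0.90 ± 0.19 SE and -1.07 ± 0.26 SE (limma adjusted p = 0.00675 and 0.0136, and 0.0574 and 0.0671 with the striatal covariate). Their fold changes with that covariate were -1.04 and -1.32. The Myo16 call remained with that covariate (adjusted p = 0.0408).

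Genes called within either genotype moved mostly in the same direction in the other. Fitted in the 8 wild type libraries alone, 187 genes were called (1.31%), and in the 8 knockout libraries alone 33 (0.231%). These fits share no library. Of the 187 genes called in wild type 185 had the same sign in knockout (98.9%), as did all 33 called in knockout when read in wild type, against 78.2% of all tested genes. Across the 14278 genes, which are not independent replicates, the fold changes of the separate fits had a Spearman correlation of 0.7. Hspa5 had values of 0.94 in wild type and 0.95 in knockout mice, Homer1 1.19 and 1.18, and Cdkn1a 1.61 and 1.48. A test of the difference between genotypes called 0 genes with limma, 0 with edgeR and 0 with DESeq2, with 146, 160 and 169 genes below an unadjusted p of 0.05, where 5% of the tested genes is 714. An interaction p above the threshold does not show that the genotypes responded alike, and for Hspa5 the difference, knockout minus wild type, was 0.013 ± 0.17 SE on the log2 scale.

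**Figure D5:**
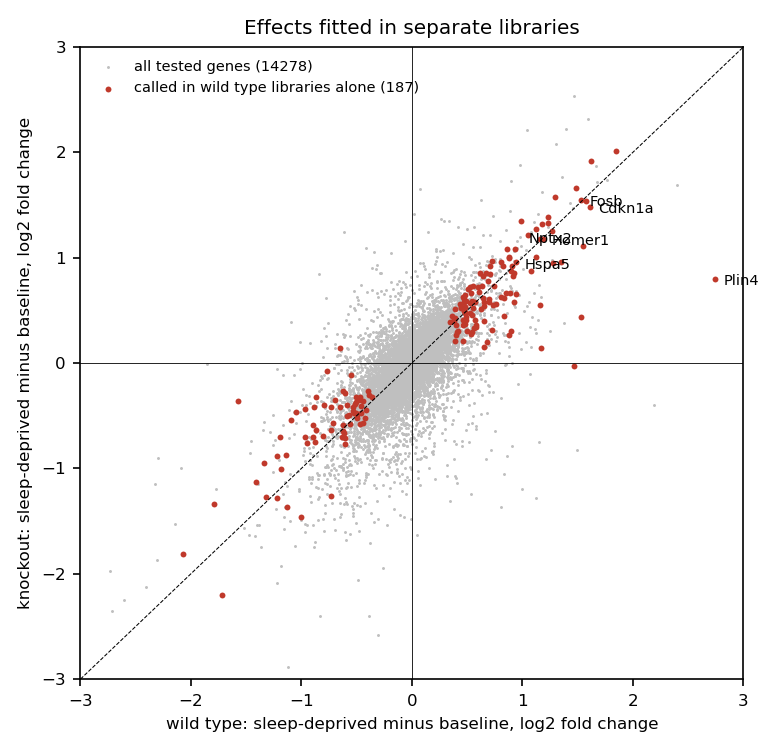
Each point is 1 of the 14278 tested genes, with the log2 fold change, sleep-deprived minus baseline, fitted in the 8 wild type libraries on the horizontal axis and in the 8 knockout libraries on the vertical axis. Red points are the 187 genes called in wild type alone, 185 of which have the same sign in knockout, and the dashed line marks equal values.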

How the data were processed

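RNA from the cortex of 16 mice was sequenced individually on a HiSeq2500 instrument (per the labels). RSEM (version 1.2.19), edgeR, mm10 and GRCm38 appear in the submitters' processing notes with no role stated, and no source used here gives the strandedness. The deposited normalized count is a signal: per the file headers it is normalized, and the low values show that the authors divided each library's gene counts by 1 factor. FPKM values, made by the authors per kilobase and per M reads, served only to give a level per length, and the deposited gene width served only for the length trend. All values came from 1 of the 4 deposited sheets, and 96 further per-sample columns were not used. Whole reads were recovered from the step of each library, and with a tolerance of 0.1 read 100% of the values of at most 20 reads were whole. A chi-square comparison between replicates gave at least 7.94 per degree of freedom, so all 16 were kept as separate libraries. Each library was a separate animal, so the tests set the difference between treatments against the variation between animals.

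Genes were tested with limma 3.58.1 in R 4.3.3 (trend, robust empirical Bayes, two-sided) on log2(normalized count + 1), with genotype as covariate and Benjamini-Hochberg adjustment over all 14278 tested genes at 0.05. Alternatives covered scaling (median of ratios, TMM, quantile), pseudocounts of 0.5 and 5, other filters, limma-voom, edgeR 4.0.16 and DESeq2 1.42.0 on recovered reads, array weights, other models, a striatal covariate (the mean log2 level of the striatal markers), a replicate block, and leaving out libraries. The script was tested on simulated counts of 14278 genes for this comparison, where it recovered 74% of 1.5-fold and 90% of 2-fold changes, with 5.2% of 173 calls false. Same-numbered libraries of a genotype deviated together in part. The correlation was 0.29 in wild type and 0.445 in knockout mice for replicate 1, but -0.117 and -0.241 for replicate 3. Numbers were not taken as pairs in the main test, and a replicate block was an alternative. The members and gene lists were chosen with earlier results of these data known, and list counts and medians carry no test. Named genes were, above the median level, the 15 largest called changes in each direction, the 10 smallest p of all, up to 5 members per list by p, and Kcnma1. Not every gene that the rule gives is printed, and some are not reported here. Positions came from GENCODE M21, which matched 22647 of 22880 identifiers. Promoters came from RefSeq (GRCm38.p6, 27025 genes).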

Additional observations from a re-analysis of the deposited data

Results flagged for a closer look

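For each named gene the highest and lowest of the 8 libraries of each treatment were compared with the rest on the log2 scale (Dixon's test). Of 170 gene and treatment groups 16 had a library far from the others, where chance flags about 1 in 20 groups. KO_SD 4, one of the libraries with a low array weight, was highest of the sleep-deprived libraries for Manf (1669, with the next at 1274), Hspa8 (46780, with the next at 36250), Stip1 (5765) and Eif4a1 (7127), and lowest for Zkscan16 (109.9, with the next at 285.7). KO_SD 1 was highest for Homer1 (16530, with the next at 9827), Dio2 (5479) and Dusp6 (2382). Among wild type libraries WT_SD 4 was lowest for Hrh1 (316.1).

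At baseline KO_BL 2 stood apart for Plin4 (236.2, with the next at 28.01), for Cirbp (1448, highest) and for Dnajb5 (2037, lowest). KO_BL 1, the shallowest library, was highest for Pdia3 (4744) and Spred2 (2624). KO_BL 4 was highest for Creld2 (271.0) and WT_BL 4 for Ina (5015). Leaving out KO_BL 1, KO_SD 1 and KO_SD 4 together gave Manf a log2 fold change of 0.83, Hspa8 0.45, Homer1 1.21 and Dio2 0.91, and all 4 genes were still called (limma adjusted p up to 0.00018).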

How the results depend on the processing

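Over all genes, 1694 were called. The count was 4210 with array weights and 206 with the striatal marker level as covariate, 187 in wild type and 33 in knockout libraries alone, where fewer samples entered. Leaving out each library in turn gave 1023 to 2319 genes, with 1023 without WT_SD 3, 1081 without WT_BL 3, 1083 without KO_BL 3 and 1099 without WT_BL 1. DESeq2 called 2336 and the other settings stayed within 1.5 times the main count. The replicate numbers of the labels paired the samples only in part (within-genotype correlations from -0.241 to 0.445, with 3 of 8 over 0.1, and 6 of 16 libraries closest to their own number). Libraries numbered 1 correlated at 0.201 to 0.445 in every pair of groups, and the cause was not tested. With the replicate block by number 1988 genes were called, and with it by genotype and number 2013. The striatal covariate turned Ppp1r1b, a striatal marker that is itself averaged in it, from a log2 fold change of -0.91 to 0.13. A further 41 of the 85 named genes lost their call with it, and 4 did without KO_BL 1, KO_SD 1 and KO_SD 4. The cause of these shifts was not tested. The interaction tests with edgeR and DESeq2 and without those 3 libraries (0 called, 292 unadjusted) were added after seeing the data. The study has 8 animals a side, so small changes of scattered genes, such as those at low counts, could not be resolved.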

Other observations

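Genes of cell growth and energy metabolism had medians above 0, and their counts of calls depended on the libraries included. Of 80 listed cytosolic ribosomal protein genes 77 were tested, 74 had a higher mean after deprivation and 5 rose (against 6.07% of all tested genes), with a median log2 fold change of 0.26. The count called higher was 29 without KO_BL 1, KO_SD 1 and KO_SD 4. Nuclear genes of the respiratory chain rose in 8 of 90 tested (18 without those 3 libraries) with 0 lower and a median of 0.18, among them Ndufab1, a complex I and acyl carrier gene, which went from a median of 551 (range 478 to 604) to 708 (614 to 958) without overlap (limma adjusted p = 0.00707, and 0.156 with the striatal covariate). Of 31 proteasome subunit genes 2 rose (7 without those libraries) and 0 fell, with a median of 0.17. All tested genes were called higher in 6.07% with all libraries and in 7.4% without the 3. With the striatal covariate 0 genes of these 3 lists were called. Of 27 translation factor genes 2 rose and 2 fell. Eif4a1, the helicase of the cap-binding complex, went from a median of 4150 (range 3582 to 4842) to 5234 (4586 to 7127), and Eif4b, its activator, went from a median of 4256 (range 4034 to 4448) to 3741 (3587 to 3912), so the partners moved in opposite directions (log2 fold changes 0.36 ± 0.079 SE and -0.18 ± 0.0469 SE, limma adjusted p = 0.00775 and 0.0229, and 0.106 and 0.171 with the striatal covariate). The part of the length trend and of the mitochondrial ribosomal RNA share given above in these values was not tested. Of 52 chromatin regulator genes 0 rose and 2 fell, with a median of -0.059.

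Among glial markers, those of oligodendrocytes had the highest median, a log2 fold change of 0.33, with 13 of 14 means higher and 3 called higher (0 without KO_BL 1, KO_SD 1 and KO_SD 4, and 0 with the striatal covariate), and the mean marker level ran from -0.68 to 0.22 at baseline and from -0.19 to 0.53 after deprivation. Astrocyte markers had a median of 0.07 with 2 of 15 higher, and microglial and oligodendrocyte precursor markers had 0 of 13 and 0 of 10 called. Gjb6, the gap junction gene of astrocytes that encodes connexin 30, went from a median of 725 (range 526 to 1226) to 1293 (1062 to 1365) (log2 fold change 0.75 ± 0.12 SE, limma adjusted p = 0.00137, and 0.0426 with the striatal covariate). Endothelial markers were mixed, with 1 higher and 3 lower of 12, against 6.07% and 5.8% of all tested genes. Ly6c1, a membrane protein gene of brain endothelium, went from a median of 324 (range 276 to 393) to 513 (399 to 609.5) with no overlap between treatments (log2 fold change 0.66 ± 0.0912 SE, limma adjusted p = 0.000264). Pyramidal and interneuron markers had medians of -0.12 and -0.071, each with 1 gene called higher and with 0 and 1 called lower. Choroid plexus and meningeal markers had 0 of 6 and 0 of 10 called, although the mean choroid level ran from -1.4 to 2.63 across baseline libraries, with WT_BL 1 highest.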
